A study of Mus musculus with 12 samples.

Results

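A group of 9 potassium channel genes was followed in retinal RNA of mice with experimental autoimmune encephalomyelitis (EAE), an autoimmune model of optic neuritis. The group is called axonal potassium channels and the BK channel here, and it holds 7 subunits of voltage-gated channels, namely Kcna1, Kcna2, Kcna6, Kcnab2, Kcnc1, Kcnc2 and Kcng2, together with the BK channel genes Kcnma1 and Kcnmb4. All 9 genes were found by their Ensembl identifiers among the 54532 identifiers of the count table, and all 9 passed the filter on low counts, which kept 18299 genes. The 9 genes were chosen with measured values of these same libraries known. From which contrast is not stated, and the contrasts taken to have guided the choice were MOG vs. SHAM for the group and GB20 vs. MOG for Kcnma1. Values of the members in MOG vs. SHAM, and of Kcnma1 in GB20 vs. MOG, are therefore a description. Where a call is named there, it only says which genes passed the threshold used for all genes, and nothing is read from it. The libraries were made from whole retina, so the part of the neuron in which a transcript was located was not measured, and the word axonal refers to where some of these channel proteins are known to reside.

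The mice were female wild-type C57BL/6 animals, 13 weeks old at tissue collection. SHAM mice were sham controls, and whether they received adjuvant is not stated in the labels or methods. MOG mice were immunized with the myelin oligodendrocyte glycoprotein peptide in complete Freund's adjuvant, followed by pertussis toxin. GB20 and GV16 mice were immunized in the same way and were later needled under xylazine and ketamine at the acupoint GB20 or at the control acupoint GV16, and whether SHAM and MOG mice were anaesthetized too is not stated. Each group had 3 libraries, and several mice were used per group in each repeat of the experiment, while the pooling of mice in a library is not stated. The p-values measure the spread between these libraries.

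The total count per library lay between 15860278 in GV16 2 and 19194280 in GB20 1. The library SHAM 2 stood apart from the other SHAM libraries. The chi-square per gene was 11.8 between SHAM 1 and SHAM 2 and 16.5 between SHAM 2 and SHAM 3, while SHAM 1 and SHAM 3 differed by 5.95 and pairs within the other groups by 3.03 to 6.90. Levels within a gene are given as CPM, the count scaled to the library size after TMM normalization. SHAM 2 also had the lowest slope of log2 CPM on gene length, at -0.10 per doubling of length, and the highest summed level of 3 lens markers, at 7.82 CPM. GB20 2 came next in both, at -0.045 and 4.62 CPM, while its chi-square was 6.54 with GB20 1 and 6.81 with GB20 3. In chi-square only SHAM 2 stood apart. Differences of the members from SHAM, and of other channel genes called by edgeR with all 12 libraries, are therefore also given without SHAM 2, while FPKM levels, shares and marker sums in SHAM hold all 3 libraries.

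Voltage-gated potassium channels open when the membrane depolarizes and bring it back towards rest, and they set the duration of action potentials and the rate at which neurons can fire. Subunits of the Kv1 family, encoded by the Kcna genes, cluster with the beta subunit Kcnab2 beside the nodes of Ranvier of myelinated axons and at the axon initial segment, where demyelination can expose them. Retinal ganglion cell axons are unmyelinated inside the mouse retina and become myelinated in the optic nerve. The Kv3 family, encoded by the Kcnc genes, serves rapid repetitive firing, and the BK channel opens with both depolarization and internal calcium.

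The members differed widely in level. On the FPKM scale, on which fragment counts are divided by gene length and library size so that genes can be compared, the mean level in SHAM was 66.6 ± 3.31 FPKM (SD, n = 3) for Kcnab2, the beta subunit. The Kv3 pore gene Kcnc1 followed with 17.8 ± 2.49 FPKM, and the BK pore gene Kcnma1 with 12.7 ± 1.79 FPKM. Kcna2 had 9.62 ± 1.60, Kcnc2 7.24 ± 0.766, Kcna6 5.75 ± 0.560 and Kcna1 3.85 ± 1.22 FPKM. The BK auxiliary gene Kcnmb4 and the silent subunit gene Kcng2 were lowest, with 0.767 ± 0.107 and 0.518 ± 0.146 FPKM. Within this order, the SHAM libraries of Kcnc2 and Kcna6 overlapped, as did those of Kcnmb4 and Kcng2, and no other neighbours did. Among 72 tested potassium channel subunits, Kcnab2 took place 4, Kcnc1 place 9, Kcnma1 place 14 and Kcng2 place 57.

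Within their own families the members held unequal shares. Of the summed FPKM of the Kv1 pore genes in SHAM, Kcna5 made up 54.3%, Kcna2 17.4%, Kcna6 10.5% and Kcna1 6.94%. Kcnab2 made up 77.1% of the Kv beta genes. Of the Kv3 genes, Kcnc1 made up 37.3% and Kcnc2 15.2%. Kcnma1 made up 72.5% of the BK pore and auxiliary genes, and Kcnmb4 4.41%, below Lrrc38 with 10.4%. Kcng2 made up 0.364% of the silent Kv subunits, a class in which Kcnv2 held 92.6%.

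**Figure D1:**
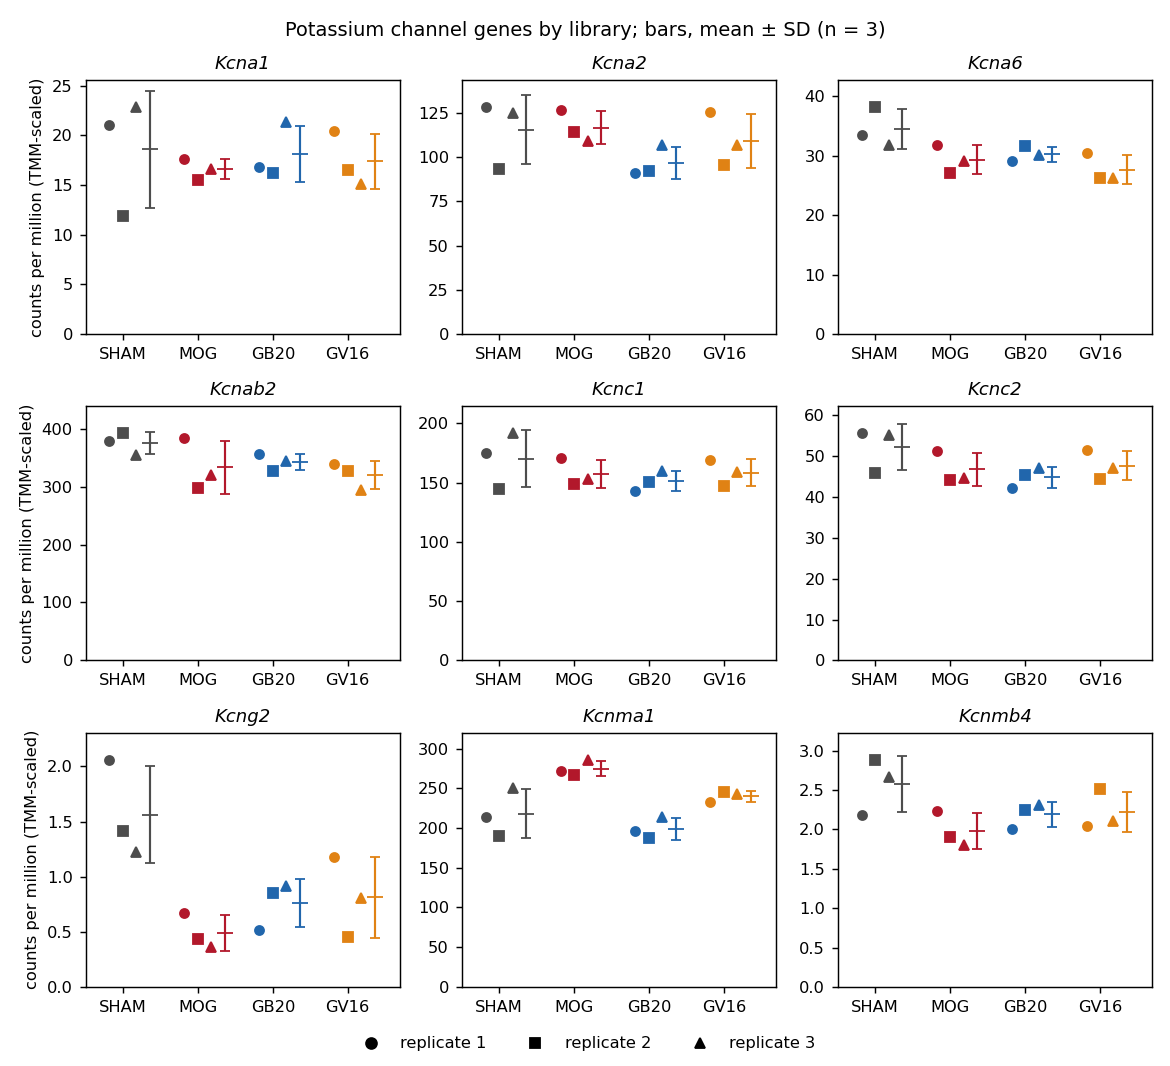
Level of each of the 9 genes in every library, in CPM scaled by TMM, on axes that start at 0. Points are libraries, with the replicate number as the symbol, and bars are the mean with SD (n = 3). Kcnma1 lay between 267 and 286 CPM in the MOG libraries and between 187 and 214 CPM in the GB20 libraries.

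Kcnma1 (ENSMUSG00000063142) encodes the pore of the BK channel and spans 23289431 to 24014491 on the minus strand of chromosome 14 (GRCm38). Its level was 214, 189 and 251 CPM in SHAM 1, 2 and 3, and 272, 267 and 286 CPM in MOG 1, 2 and 3. GB20 libraries had 196, 187 and 214 CPM, and GV16 libraries had 232, 246 and 242 CPM. All 3 MOG libraries lay above all libraries of the other groups, and all 3 GB20 libraries lay below those of GV16, while GB20 overlapped SHAM. The level in MOG vs. SHAM differed by a log2 fold change of 0.33 (SE 0.084), and in GB20 vs. MOG by -0.47 (SE 0.084). Both passed the threshold for DEGs, an adjusted p under 0.05, but these are the contrasts taken to have guided the choice of the gene. With SHAM 2 left out, the log2 fold change in MOG vs. SHAM was 0.25, and Kcnma1 was no longer a DEG. The call was lost on leaving out any library other than SHAM 3, and over the 12 left-out libraries the log2 fold change ran from 0.25 to 0.44, the latter without SHAM 3. In GB20 vs. MOG, the call was lost without MOG 2 (-0.49), MOG 3 (-0.44), GB20 1 (-0.45) or GB20 2 (-0.42).

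Kcnma1 has long transcripts, with 16976 bases of exons, and its length as used in the FPKM values stood at the percentile 98.7 of the tested genes. Log2 CPM of long genes moved with the library, with slopes per doubling of length from -0.10 in SHAM 2 to 0.05 in SHAM 3. With this trend removed, the log2 fold change of Kcnma1 in MOG vs. SHAM was 0.22 and no longer a DEG, and in GB20 vs. MOG it was -0.37 and still a DEG. Kcng2 stayed a DEG in MOG vs. SHAM with the trend removed, at -1.60.

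**Figure D2:**
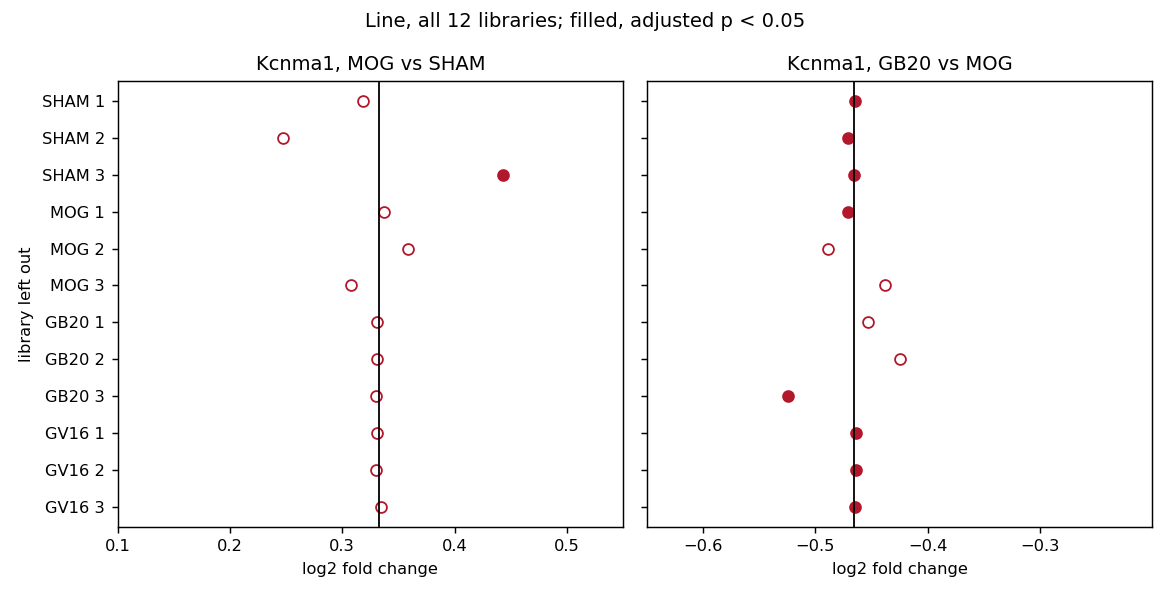
Log2 fold change of Kcnma1 in MOG vs. SHAM and in GB20 vs. MOG after leaving out the library named on the vertical axis. The line is the value with all 12 libraries, and filled points had an adjusted p under 0.05, which held for 1 of 12 libraries left out in MOG vs. SHAM and 8 of 12 in GB20 vs. MOG.

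Kcnmb4 encodes the BK beta subunit known from neurons, and it slows activation of the channel. It spans 116417861 to 116473878 on the minus strand of chromosome 10. Its level was 2.18, 2.88 and 2.66 CPM in SHAM and 2.24, 1.90 and 1.80 CPM in MOG, and the groups overlapped. It was counted with only 30 to 49 reads per library. In MOG vs. SHAM the log2 fold change was -0.38 (SE 0.22), and -0.28 without SHAM 2. Antisense gene Kcnmb4os2 overlaps its exons and had 9 to 27 counts per library, and reads of the pair cannot be told apart without strand information. The ratio of Kcnma1 to Kcnmb4 FPKM was 19.3, 12.9 and 18.4 in SHAM 1, 2 and 3 and 23.8 to 31.1 in MOG. It lay between 16.3 and 19.1 in GB20 and reached 22.5 in GV16, and the MOG libraries stood above all others in this ratio. Kcnma1 enters the ratio and is taken to have been chosen from MOG vs. SHAM and GB20 vs. MOG, so nothing is read from this order.

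Kcng2 (ENSMUSG00000059852) encodes an electrically silent subunit, which forms channels only together with Kv2 subunits, and it lies between 80294546 and 80364254 on the minus strand of chromosome 18. It was counted 34, 24 and 22 times in SHAM 1, 2 and 3, and 12, 7 and 6 times in MOG. GB20 libraries had 10, 14 and 15 counts and GV16 libraries had 19, 7 and 13. All SHAM libraries were above all libraries of the other groups, which overlapped one another. The log2 fold change in MOG vs. SHAM was -1.65 (SE 0.40), and the call as a DEG was lost without SHAM 1 (-1.41), MOG 2 (-1.56) or MOG 3 (-1.47). The call was also lost with DESeq2 on 6 libraries and with log2(FPKM + 1) without a minimum FPKM. Without SHAM 2 the value was -1.71. Counting noise is large at this depth.

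Of the other Kv1 genes, Kcna1 lies at 126640397 to 126646384 and Kcna6 at 126708329 to 126740674 on the minus strand of chromosome 6, and both encode pore subunits known from axons. Kcna1 had 21.0, 11.9 and 22.9 CPM in SHAM and 15.5 to 17.6 CPM in MOG, so SHAM 2 was the lowest of all 12 libraries. Without SHAM 2, the log2 fold change in MOG vs. SHAM went from -0.16 (SE 0.20) to -0.39, and without SHAM 1 and SHAM 3 it was -0.068 and 0.015. Kcna2 lies at 107101146 to 107115005 on the plus strand of chromosome 3 and encodes a pore subunit that assembles with the Kcna1 subunit, and it had 128, 93.4 and 125 CPM in SHAM against 109 to 127 CPM in MOG. GB20 libraries had 90.8, 92.1 and 107 CPM, all below the 3 MOG libraries. Kcna6 had 33.5, 38.2 and 31.8 CPM in SHAM and 27.0 to 31.8 CPM in MOG, and 39.6% of its exon bases overlap the antisense gene Gm26673, which had 0 to 10 counts. Kcnab2, at 152390742 to 152477871 on the minus strand of chromosome 4, had 378, 392 and 355 CPM in SHAM and 297 to 384 CPM in MOG. The log2 fold changes of these 4 genes in MOG vs. SHAM lay between -0.23 for Kcna6 and 0.01 for Kcna2. Kcna2 had -0.05 with the length trend removed, and without SHAM 2 Kcna2 had -0.11, Kcna6 -0.15 and Kcnab2 -0.13. Over the 12 left-out libraries, Kcna2 ran from -0.11 (SHAM 2) to 0.095 (SHAM 1), Kcna6 from -0.30 to -0.15 (SHAM 2), and Kcnab2 from -0.29 (MOG 1) to -0.087 (MOG 2).

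The Kv3 pore genes Kcnc1 (46396497 to 46438704 on the plus strand of chromosome 7) and Kcnc2 (112271121 to 112467024 on the plus strand of chromosome 10) moved together. Across the 12 libraries, log2 CPM of the pair had a Pearson r of 0.947, the highest of the 36 pairs of members, and the libraries share depth and composition. Kcnc1 had 175, 144 and 191 CPM in SHAM, 149 to 171 CPM in MOG, 143 to 160 CPM in GB20 and 147 to 170 CPM in GV16. Kcnc2 had 55.5, 45.8 and 55.2 CPM in SHAM and 44.2 to 51.3 CPM in MOG. SHAM 2 was the lowest SHAM library for both genes, and the groups overlapped. In MOG vs. SHAM, the log2 fold change went from -0.11 to -0.21 for Kcnc1 and from -0.16 to -0.24 for Kcnc2 without SHAM 2. Kcnc1 had -0.021 without SHAM 3, -0.067 without MOG 2 and -0.18 without MOG 1, and Kcnc2 ran from -0.24 to -0.11 over the 12 left-out libraries. Because these members moved together, their promoters are shown, taken from RefSeq on GRCm38.p6, which matched 7 of the 9 members. The 250 bases before the start of Kcnc1 (chr7:46396218-46396467, plus strand) and before the first of 4 starts of Kcnc2 (chr10:112269767-112270016, plus strand) are printed in lower case, with GC boxes (GGGCGG, on either strand) in capitals.
Kcnc1: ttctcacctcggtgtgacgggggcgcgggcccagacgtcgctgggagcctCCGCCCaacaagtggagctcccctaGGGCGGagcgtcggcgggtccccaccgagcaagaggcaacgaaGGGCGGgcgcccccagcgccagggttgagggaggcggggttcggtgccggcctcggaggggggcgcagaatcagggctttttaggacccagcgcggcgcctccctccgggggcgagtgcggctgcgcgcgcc
Kcnc2: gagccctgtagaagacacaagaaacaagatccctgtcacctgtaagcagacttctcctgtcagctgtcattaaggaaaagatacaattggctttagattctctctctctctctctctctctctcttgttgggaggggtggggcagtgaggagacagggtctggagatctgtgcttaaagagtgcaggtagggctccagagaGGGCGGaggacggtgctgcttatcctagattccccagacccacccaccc
The Kcnc1 window held 3 GC boxes and 74.4% G and C, and the Kcnc2 window, which lies upstream of the annotated gene start given above, held 1 GC box and 52.4%. The windows before the other 3 starts of Kcnc2 held 0 GC boxes. A GC box was found in 32.7% of 32851 promoters of the same length. Neither window held an E-box (CACGTG, in 6.02% of promoters), a cAMP response element (TGACGTCA, 1.55%) or a TATA box (TATAAA, 12.4%). A match of letters is a description and not a site, and nothing is drawn from it.

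The question of MOG vs. SHAM was which retinal genes change with the immunization. In this comparison 2 of the 9 members were DEGs, Kcnma1 higher and Kcng2 lower, against 1.34% of all tested genes. This contrast is taken to have guided the choice of the members, so nothing is read from the count. Libraries of the groups did not overlap for 1 member with higher and 1 with lower values, against 16.2% of tested genes. The median log2 fold change of the 9 members was -0.16, beside -0.0023 over all tested genes. Without SHAM 2 only Kcng2 of the members was a DEG. Fewer cells of a type and less RNA per cell cannot be told apart in bulk retina.

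In GB20 vs. MOG, which asks what needling at GB20 does in immunized mice, 1 of the 9 members was a DEG, beside 0.240% of tested genes. It was Kcnma1, for which this contrast is also taken to have entered the choice. Kcna2 had a log2 fold change of -0.27 (95% interval -0.52 to -0.02) and an adjusted p of 0.579 in edgeR's quasi-likelihood test, so its difference did not pass. Kcna2 and Kcnma1 were the 2 members whose libraries did not overlap, and 15.7% of tested genes did not. Kcng2 had a log2 fold change of 0.61 (95% interval -0.30 to 1.52), which did not pass either, and 0.92 without MOG 1. The MOG libraries enter this comparison and MOG vs. SHAM on opposite sides, so nothing is read from the members' counts here.

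In GV16 vs. MOG, with the MOG libraries shared again, 0 of 9 members were DEGs by edgeR, beside 0.164% of tested genes. Limma-voom and DESeq2 on 12 libraries gave 0 as well. At an unadjusted p under 0.05 there was 1 member, Kcnma1, beside 5.30% of tested genes. The log2 fold change of Kcnma1 was -0.20 (95% interval -0.37 to -0.02) with an adjusted p of 0.905, and it was the 1 member whose libraries did not overlap, beside 12.6% of tested genes. These MOG libraries belong to the contrasts taken to have guided the choice, so nothing is read from the members' counts beside these shares. A log2 fold change of 0.72 for Kcng2 had an interval from -0.19 to 1.63, and it was 0.36 without GV16 1 and 1.03 without MOG 1.

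The sites were compared directly in GB20 vs. GV16, which shares no library with MOG vs. SHAM but shares GB20 with GB20 vs. MOG. None of the 9 members was a DEG by edgeR, limma-voom or DESeq2 on 12 libraries, beside 0.00546% of tested genes. At an unadjusted p under 0.05 there was 1, Kcnma1, beside 2.93% of tested genes. Kcnma1 was lower in all 3 GB20 libraries, with a log2 fold change of -0.27 (95% interval -0.45 to -0.10) and an adjusted p of 0.999875, and 8.34% of tested genes had libraries that did not overlap. Its interval, which is not adjusted for the number of genes, excluded 0, while those of the other 8 members included 0. No member passed the test after adjustment. The GB20 libraries are taken to have entered the choice of Kcnma1, so nothing is read from its unadjusted p, interval or lack of overlap here.

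Needled and immunized mice were further compared with SHAM. These comparisons reuse the SHAM libraries of the contrast taken to have guided the choice, so nothing is read from the members' counts beside the shares of all tested genes. In GB20 vs. SHAM, edgeR called 0 of 9 members, beside 0.344% of tested genes, and limma-voom and DESeq2 called 0. All 9 log2 fold changes were negative, from -1.05 for Kcng2 to -0.04 for Kcna1, and the sign for Kcna1 turned with limma-voom, with FPKM, and without SHAM 1, SHAM 3, GB20 1 or GB20 2 (up to 0.14). Without SHAM 2, edgeR called 0 members, and Kcna2 went from -0.26 (adjusted p 0.535) to -0.39 (adjusted p 0.0709). Over the 12 left-out libraries, Kcna2 ran from -0.39 without SHAM 2 to -0.18 without SHAM 1. Kcnc1 had -0.17, with -0.28 without SHAM 2 and -0.081 without SHAM 3, and Kcnc2 had -0.22, with -0.30 without SHAM 2. The size of these differences thus moved with single SHAM libraries. Kcna6 had -0.19 and Kcnmb4 -0.24 with all libraries, and -0.11 and -0.15 without SHAM 2. Without SHAM 2, Kcnab2 went from -0.13 to -0.098, Kcna1 to -0.28 and Kcng2 to -1.11. At an unadjusted p under 0.05 there were 3 members, beside 9.06% of tested genes, and the libraries of 2, Kcna6 and Kcng2, did not overlap, beside 12.7%. In GV16 vs. SHAM, edgeR called 0 of 9 members, beside 0.656% of tested genes, limma-voom and DESeq2 called 0, and 3 were under an unadjusted p of 0.05, beside 10.9%. Kcna6 had a log2 fold change of -0.32 (95% interval -0.51 to -0.12), with an adjusted p of 0.147 in edgeR. Kcna6, Kcnab2 and Kcng2 had libraries that did not overlap, beside 14.5% of tested genes. Without SHAM 2, Kcna6 had -0.24, Kcnab2 -0.19 and Kcng2 -0.99 in GV16 vs. SHAM. The other members had smaller differences there, and leaving out 1 library moved each of them by more than 1.5 times. Kcna1 had -0.10, and -0.33 without SHAM 2 and 0.080 without SHAM 3. Kcna2 had -0.08, and -0.21 without SHAM 2, 0.0040 without GV16 2 and -0.14 with the length trend removed. These signs therefore rest on single libraries. Kcnc1 had -0.10, and -0.21 without SHAM 2 and -0.013 without SHAM 3. Kcnc2 had -0.13, and -0.21 without SHAM 2 and -0.085 without GV16 2. Kcnmb4 had -0.22, and -0.13 without SHAM 2. Kcnma1, the BK pore gene, was the 1 member with a positive value, at 0.14. It had 0.047 without SHAM 2, 0.25 without SHAM 3 and 0.042 with the length trend removed. In GB20 vs. SHAM it had -0.13, and -0.22 without SHAM 2 and -0.022 without SHAM 3.

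**Figure D3:**
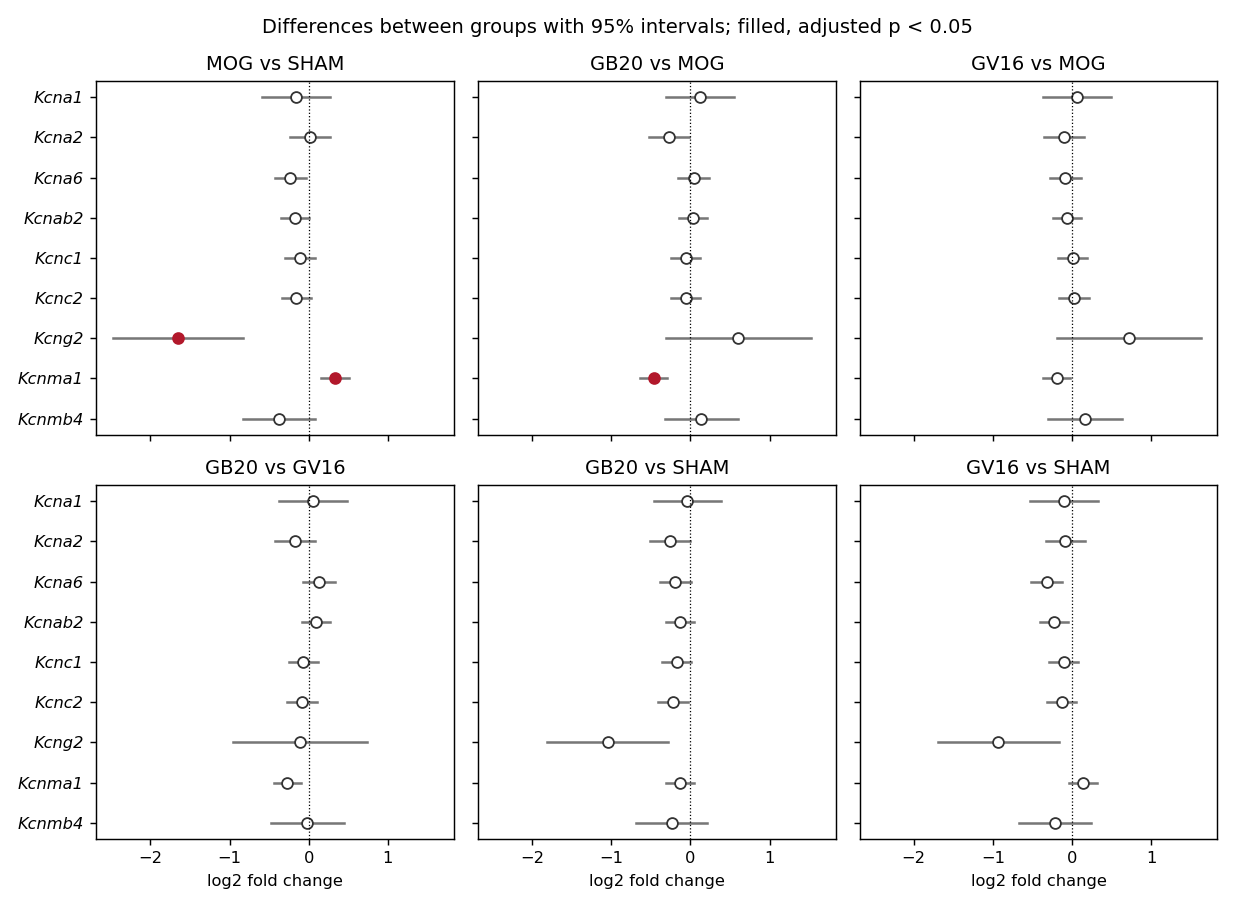
Log2 fold change of the 9 genes in 6 comparisons with 95% intervals from the standard error of the fit. Filled points had an adjusted p under 0.05, which were Kcng2 and Kcnma1 in MOG vs. SHAM and Kcnma1 in GB20 vs. MOG, the contrasts taken to have guided the choice.

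Other channel genes and partners were taken as whole families. Of 117 listed genes other than the members, 96 were tested, among them 63 potassium channel subunits. In MOG vs. SHAM, 3 of the 96 were lower and 0 higher by edgeR, beside 1.34% of all tested genes: Kcnd2, a Kv4 pore subunit, Kcnip4, a Kv4 partner protein, and Lgi3, a secreted leucine-rich protein. Kcnip4 had 42.9, 41.6 and 44.2 CPM in SHAM and 29.5, 27.7 and 27.9 in MOG, a log2 difference of -0.60 (SE 0.090) with an adjusted p of 0.000726 in edgeR. Lgi3 had 19.4, 18.9 and 18.1 CPM in SHAM and 13.2, 10.2 and 12.3 in MOG, a log2 difference of -0.66 (SE 0.11) with an adjusted p of 0.00242. Both stayed DEGs with any library left out, with -0.61 and -0.65 without SHAM 2. Kcnd2 had 12.3, 10.9 and 11.9 CPM in SHAM and 8.06, 5.96 and 5.64 CPM in MOG. Its difference on the log2 scale was -0.83 (SE 0.18) with an adjusted p of 0.0179, and the call was lost without SHAM 1 (-0.79), MOG 2 (-0.76) or MOG 3 (-0.73) and kept without SHAM 2 (-0.87). Without SHAM 2, and likewise without SHAM 3, 5 of the 96 genes were called. Some calls under other settings were higher in MOG, namely the calcium channel pore genes Cacna1d (0.45) and Cacna1e (0.50) without SHAM 3, and Kcna3, a Kv1 pore gene, and Cacna1d with no filter on low counts (0.61 and 0.32) and with the replicate block (0.64 and 0.33). For Kcnd2, Kcnip4 and Lgi3, all 3 SHAM libraries were above all 3 MOG libraries. The study itself listed Kcnd2, Kcnip4, Kcng2 and Kcnma1 as DEGs of these samples, so their direction here is not independent evidence. Of the exon bases of Kcnip4, 7.36% overlap the genes 5730480H06Rik (241 to 362 counts) and Gm20700 (1 to 6 counts) on the other strand. Its counts are uncertain in that part.

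Kcnip4 and Lgi3 were also below SHAM in needled mice. In GB20 vs. SHAM, 2 of the 96 genes were lower and 0 higher, beside 0.344% of all tested genes, Kcnip4 with -0.46 (adjusted p 0.0190) and Lgi3 with -0.58 (adjusted p 0.0207), with all 3 GB20 libraries below SHAM. The call of Kcnip4 was lost without SHAM 1 (-0.47), SHAM 3 (-0.44), GB20 1 (-0.44) or GB20 3 (-0.48), and that of Lgi3 without SHAM 1 (-0.55), GB20 1 (-0.50) or GB20 3 (-0.60). In GV16 vs. SHAM, 2 were lower and 0 higher, beside 0.656%, Kcnip4 with -0.47 (adjusted p 0.0109) and Lgi3 with -0.57 (adjusted p 0.0164). The call of Kcnip4 was lost without SHAM 1 (-0.47), GV16 2 (-0.45) or GV16 3 (-0.38), and that of Lgi3 without SHAM 1 (-0.54), GV16 2 (-0.55) or GV16 3 (-0.59). With the replicate block, 4 genes were called in GV16 vs. SHAM, Dpp10 and Kcnd2 with Kcnip4 and Lgi3, with adjusted p values of 0.0480 for Dpp10, a Kv4 partner, and 0.0248 for Kcnd2. Kcnd2 had log2 fold changes of -0.65 in GB20 vs. SHAM and -0.72 in GV16 vs. SHAM and was called by edgeR in neither with all 12 libraries. Other settings did call it, in GV16 vs. SHAM limma-voom, DESeq2 on 12 libraries, the replicate block and edgeR with no filter on low counts, and in GB20 vs. SHAM DESeq2 on 6 libraries and edgeR with no filter. Without GV16 1, edgeR called it in both comparisons, with -0.65 and -0.9996. Without SHAM 2, Kcnip4 and Lgi3 kept their calls, with -0.49 and -0.57 in GB20 vs. SHAM and -0.49 and -0.56 in GV16 vs. SHAM. All these comparisons share the SHAM libraries. Against MOG, neither Kcnip4 nor Lgi3 was a DEG in either needled group.

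In GB20 vs. MOG, 1 of the 96 genes was lower and 0 higher, beside 0.240% of all tested genes, Cacna1s, the pore of an L-type calcium channel, with a log2 difference of -0.39 and an adjusted p of 0.0488. It had 31.8, 30.4 and 31.5 CPM in MOG and 22.9, 24.7 and 23.8 CPM in GB20. The call was lost on leaving out any library other than SHAM 2, with values from -0.42 to -0.36, and the exons of Cacna1s overlap the antisense gene Gm37759 with 14 to 30 counts. In GV16 vs. MOG and in GB20 vs. GV16, 0 of the 96 were DEGs by edgeR, limma-voom or DESeq2 on 12 libraries, and 3 in each were under an unadjusted p of 0.05, beside 5.30% and 2.93% of all tested genes.

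**Figure D4:**
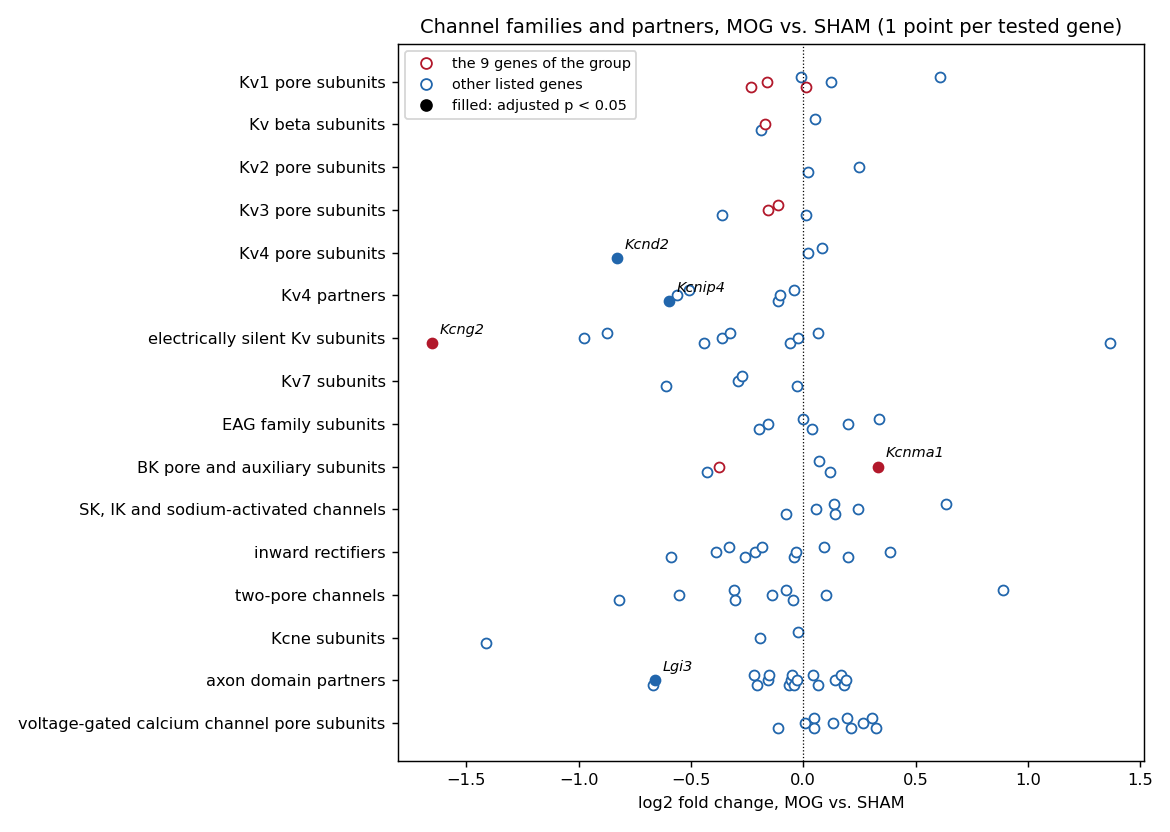
Log2 fold change in MOG vs. SHAM of each tested gene of 16 channel and partner lists, with 1 point per gene. The 9 members are red and the other listed genes blue, and filled points with names had an adjusted p under 0.05.

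Markers of retinal cell types were followed beside these results. The summed level of 13 retinal ganglion cell markers was 1033 ± 65.9 CPM (SD, n = 3) in SHAM, 603 ± 59.9 in MOG, 678 ± 11.6 in GB20 and 633 ± 109 in GV16. Of these 13 markers, edgeR called 12 lower in MOG vs. SHAM, beside 1.34% of all tested genes. It called 4 lower in GB20 vs. SHAM, beside 0.344%, and 11 in GV16 vs. SHAM, beside 0.656%. In this edgeR fit none passed between needled and MOG mice or in GB20 vs. GV16, which does not show that these groups did not differ. The counts of 4 and 11 therefore do not show a difference between the needling sites. The most abundant was Nefl, with 132 to 293 CPM, and none of the 13 was at 0 in any library. The 4 astrocyte markers summed to 42.1 ± 4.08 CPM in SHAM and 74.2 ± 2.27 in MOG, of which 1, Gfap, the most abundant, was higher in MOG vs. SHAM and in GB20 vs. SHAM. This sum mainly followed Gfap. Log2 fold changes in MOG vs. SHAM were 0.094 for Pax2, -0.38 for S100b and 0.24 for Aldh1l1, and none of these was called. The 9 microglial markers summed to 46.3 ± 4.37 and 63.0 ± 4.39 CPM, and 2, Csf1r and C1qa, were higher in MOG vs. SHAM and 1, Csf1r, in GV16 vs. SHAM. The 6 T cell markers did not pass the filter, with 0.183 to 1.61 CPM in sum and Cd8a the most abundant, and Cd3e, Cd3d, Cd3g, Cd4 and Trac were at 0 in some libraries. Of the amacrine markers, led by Gad1, 1 was lower in MOG vs. SHAM and in GV16 vs. SHAM (Calb2). Of the Müller cell markers, led by Glul, Aqp4 was higher in MOG vs. SHAM and lower in both needled groups vs. MOG, and Rlbp1 was lower in GV16 vs. SHAM. Of the oligodendrocyte markers, led by Mbp, Cnp was higher in MOG vs. SHAM and lower in both needled groups vs. MOG, Mobp and Olig2 were at 0 in some libraries, and the list reached 99.5 CPM in MOG 2. Of the cone markers, led by Opn1sw, Opn1mw was higher in GV16 vs. SHAM. No marker of rods, bipolar cells (Trpm1), horizontal cells (Calb1), pigment epithelium (Rgr), endothelium (Kdr) or blood (Hba-a1) was a DEG by edgeR in any comparison. The 7 pigment epithelium markers summed to 12.7 ± 1.45 CPM in SHAM, 24.5 ± 6.03 in MOG, 22.6 ± 2.08 in GB20 and 24.4 ± 13.1 in GV16, where GV16 2 had 38.5 CPM, and all MOG and GB20 libraries lay above all SHAM libraries in this sum. Lens markers, led by Cryaa, did not pass the filter, and Cryaa, Crygd and Mip were at 0 in some libraries. The part of these cell types in the values of Kcng2, Kcnip4 and Lgi3 was not tested.

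**Figure D5:**
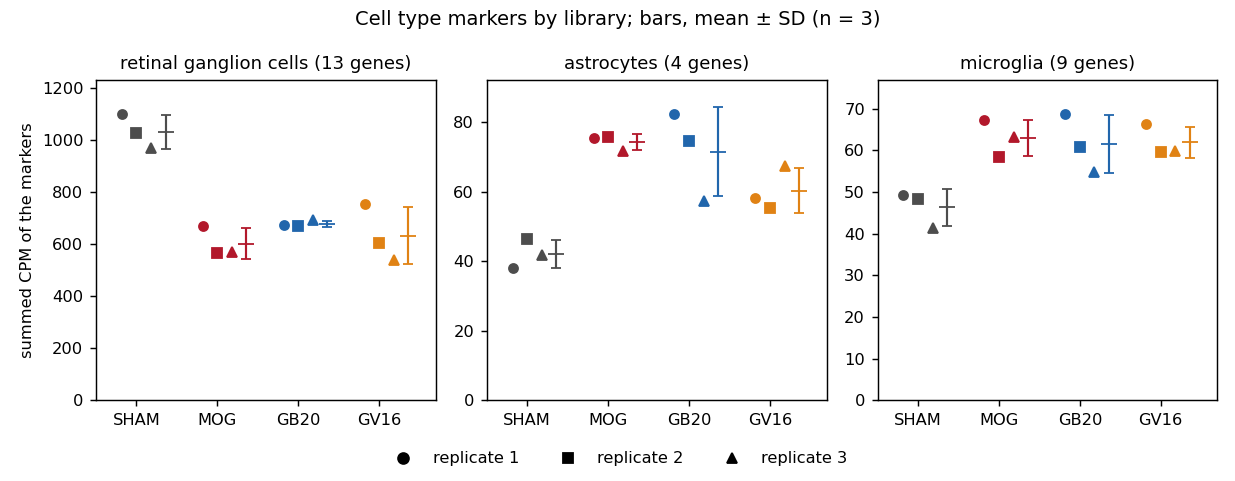
Summed CPM of markers of retinal ganglion cells, astrocytes and microglia in each library. Points are libraries and bars the mean with SD (n = 3), and the ganglion cell markers of SHAM lie above those of all other libraries.

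Some genes resembled the members most closely over the 12 libraries, and these are named as a description without a test. Log2 CPM of Kcnma1 was most like that of Prr14l (Pearson r 0.929), Nf1 (0.912) and Gm20405 (0.909). Kcng2 was most like Rusc1 (0.945), Elavl4 (0.936) and Cx3cl1 (0.934), and Kcnmb4 was most like Isyna1 (0.898), Zc4h2 (0.892) and Sema4c (0.887). Kcna1 was most like Akap6 (0.930), Sytl5 (0.925) and Ccser2 (0.914), and Kcna2 was most like Mgat5 (0.971), Fam168a (0.965) and Lonrf2 (0.959). Kcna6 was most like Tmem179 (0.945), Tceal6 (0.936) and Capns1 (0.935), and Kcnab2 was most like Grb2 (0.933), Ccne1 (0.929) and Galnt9 (0.925). Kcnc1 was most like Kcnc2, then Ppm1l (0.933) and Pcdh9 (0.928). Kcnc2 was most like Dzank1 (0.950), then Kcnc1 and Ppm1l (0.943). Among the members, Kcnc1 went with Kcna2 (0.851) and Kcna6 with Kcnab2 (0.832), while Kcnma1 and Kcna6 had an r of -0.49.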

How the data were processed

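Labels gave the group and replicate number of each of the 12 retinal libraries. Polyadenylated RNA was enriched by the authors, made into paired-end libraries with a kit that does not mark strand, aligned with HISAT2 2.0.5 to mm10 (per the submitters' processing notes) and counted per gene with FeatureCounts. The authors deposited counts, whole numbers with no scaling, and FPKM values computed from count and gene length. Annotation release, strand setting and use of multiply aligned reads are not given in the sources used. Gene names and exons came from GENCODE vM21 on GRCm38, promoters from RefSeq on GRCm38.p6.

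The quasi-likelihood test of edgeR 4.0.16 (R 4.3.3) was used on counts. Its expression filter, given the 4 groups, kept 18299 of 34538 genes with a count. Scaling was by TMM, and 1 fit with a mean for each group and robust dispersion covered the 12 libraries, leaving 8 residual degrees of freedom. DEGs were called at an adjusted p (Benjamini-Hochberg, over all tested genes) under 0.05. The standard error was the absolute log2 fold change divided by the square root of F, and 95% intervals used it with the total degrees of freedom of the fit. Alternatives, 12 in number, used other scalings, no filter, DESeq2 1.42.0, limma 3.58.1, a replicate block, removal of the length trend, and FPKM as log2(FPKM + 1) or with 0.1, with and without a minimum mean of 1 FPKM, and 12 further fits each left out 1 library. The code was tested on simulated data. Tables and figures were made with Python 3.11.15, pandas 2.3.3 and matplotlib 3.10.9. Counting error was largest for Kcng2 and Kcnmb4.

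Named genes were the 9 members, every gene of 16 channel and partner lists called in a comparison, the most abundant gene of each of 15 marker lists with every marker at 0, and the 3 genes most like each member. Some genes that this rule names are not reported here. Other called markers and Cacna1d, Cacna1e, Dpp10 and Kcna3 were named after their values were seen. The members and lists were chosen with earlier results of these data known. Pairing of same-numbered libraries was checked by correlating their deviations from the group means. All 3 correlations were over 0.1 for SHAM with GB20 (0.229, 0.607 and 0.626) and for SHAM with GV16 (0.330, 0.353 and 0.330), so a value with the replicate block stands beside those comparisons where it changes a call.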

Additional observations from a re-analysis of the deposited data

How the results depend on the processing

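Calls depended on the processing in several places, and the causes were not tested. Of the 9 members, 2 were called in MOG vs. SHAM, and 1 was called with DESeq2 on 6 libraries, edgeR on 6 libraries or the length trend removed, and 0 with each of the 3 FPKM settings. The call lost was that of Kcng2 with DESeq2 on 6 libraries. It was that of Kcnma1 with edgeR on 6 libraries or the length trend removed. In GB20 vs. MOG, 1 member and 1 other listed gene were called, and 0 and 0 with the FPKM settings. Leaving out 1 library gave 0 to 2 members in MOG vs. SHAM, 0 to 1 member in GB20 vs. MOG and 0 to 1 listed gene in GB20 vs. MOG. Of the other listed genes, 3 were called in MOG vs. SHAM, against 10 without a filter on low counts, 5 with the length trend removed and 8 with the replicate block, and 2 to 5 on leaving out 1 library. In GB20 vs. SHAM, 2 listed genes were called, against 4 without a filter, 0 with FPKM and 0 to 3 on leaving out 1 library. In GV16 vs. SHAM, 2 were called, against 5 without a filter, 1 with edgeR on 6 libraries, 4 with the replicate block, 4 with the length trend removed, 0 with FPKM and 0 to 4 on leaving out 1 library. No member was called in GV16 vs. MOG, GB20 vs. GV16, GB20 vs. SHAM or GV16 vs. SHAM under any of the 12 alternatives or 12 left-out libraries. The replicate block changed no call of a member. Kcng2 and Kcnmb4 did not reach the FPKM minimum and have no value in 2 of the FPKM settings.

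Some values near 0 changed sign. Kcna1 in GB20 vs. SHAM was 0.0018 with limma-voom, and 0.00061 and 0.010 with FPKM plus 1 and plus 0.1, and Kcna2 in MOG vs. SHAM was -0.052 with the length trend removed. Leaving out 1 library gave Kcna1 a log2 fold change of -0.39 to 0.015 in MOG vs. SHAM, -0.012 to 0.19 in GB20 vs. MOG, -0.071 to 0.16 in GV16 vs. MOG, -0.075 to 0.20 in GB20 vs. GV16, -0.28 to 0.14 in GB20 vs. SHAM and -0.33 to 0.080 in GV16 vs. SHAM. Kcna2 had -0.11 to 0.095 in MOG vs. SHAM and -0.21 to 0.0040 in GV16 vs. SHAM, and Kcna6 had -0.013 to 0.11 in GB20 vs. MOG. Kcnab2 had -0.042 to 0.15 in GB20 vs. MOG and -0.14 to 0.057 in GV16 vs. MOG. Kcnc1 had -0.11 to 0.0040 and -0.044 to 0.071 in the same comparisons, and Kcnc2 had -0.10 to 0.015 and -0.031 to 0.10. In GB20 vs. GV16, Kcng2 had -0.40 to 0.25 and Kcnmb4 -0.074 to 0.075. None of these values was called.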
